A study of Mus musculus with 23 samples.

Results

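The genes described here fold proteins in the endoplasmic reticulum (ER), sense unfolded protein there, or remove what fails to fold. They were taken by name from 37 names of ER chaperones, disulfide isomerases, sensors and transcription factors of the unfolded protein response, and components of ER-associated degradation and of the translocon. Of these names, 36 had a row in both deposited expression tables, which hold 39017 genes each. The remaining name, Vimp, is an older symbol of Selenos, which is among the 36. Membership was set by name, but the list was drawn up with earlier results of these data known. All 36 genes passed the filter on low values.

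RNA was measured in mouse hippocampus with poly(A)-selected libraries read as 75 bp single ends. The 4 groups hold 5 libraries each: wild-type (WT) controls, WT after chronic social defeat stress (CSDS), controls labelled knockout of Nrsn2, and libraries of that label after CSDS. Nrsn2 encodes neurensin 2, a small membrane protein of neurons. In CSDS a mouse spent 5 min a day, over 10 days, in the cage of a different aggressive CD-1 mouse each day, and the rest of the day next to it behind a perforated divider. The labels give no sex, age, strain, allele or way in which the knockout was made. Nor do they say that the libraries of a group come from separate animals, so the p-values rest on the spread over these samples alone, which may be technical.

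Secreted and membrane proteins enter the ER through the Sec61 channel and fold with the help of the Hsp70 chaperone BiP (gene Hspa5), the Hsp90 relative Grp94 (Hsp90b1), the lectin chaperones calnexin and calreticulin and the protein disulfide isomerases. Proteins that do not fold are drawn back to the cytosol and degraded. The sensors IRE1 (Ern1), PERK (Eif2ak3) and ATF6 answer unfolded protein by raising the transcription of chaperone and degradation genes, and in neurons the same machinery carries receptors, channels and secreted peptides.

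ATF6 and the factor XBP1 are known to act on a promoter element called ERSE, so the promoters of these genes are shown first. The RefSeq promoter sequences of GRCm38.p6, from 250 bases before to 50 bases after each gene's start, were matched to 29 of the 36 genes. The 7 without an entry were Hspa13, Hyou1, Sil1, Manf, Atf6, Derl1 and Sec61a1. On both strands 3 letter strings were searched: ERSE (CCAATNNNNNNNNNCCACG), ERSE-II (ATTGGNCCACG, which begins with the other strand of CCAAT) and UPRE (TGACGTG). ERSE was found in 9 of the 29 (31.0%), against 39 of 32851 promoters of the same length (0.119%) or 37 of 27017 genes (0.137%). Its holders were Hspa5, Hsp90b1 (with 2 copies), Dnajc3, Creld2, Calr, Canx, Pdia6, Syvn1 and Derl3. ERSE-II was found in Dnajb11 and Herpud1 (6.9%, against 0.0365% of all promoters), and UPRE in Hspa5 alone (3.45%, against 2.01%). A match describes letters in this window and is not evidence of a bound site. The list was named for the response in which these factors act, so its share of ERSE is a description and was not tested. The sites of 7 genes are printed 5′ to 3′ with 5 flanking bases on each side, on the strand on which the element reads in the order given above. Capitals mark the element, free bases included. They are the element holders whose library values or genotype contrasts are described further on.
Hspa5, chr2:34772020-34772048, plus strand: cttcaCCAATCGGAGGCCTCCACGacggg
Hsp90b1, chr10:86705528-86705556, plus strand: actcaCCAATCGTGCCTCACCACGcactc
Hsp90b1, chr10:86705633-86705661, minus strand: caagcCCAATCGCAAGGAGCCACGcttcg
Calr, chr8:84847070-84847098, plus strand: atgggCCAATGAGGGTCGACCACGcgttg
Pdia6, chr12:17266486-17266514, plus strand: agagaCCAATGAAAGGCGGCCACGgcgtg
Syvn1, chr19:6046527-6046555, plus strand: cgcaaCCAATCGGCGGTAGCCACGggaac
Derl3, chr10:75893237-75893265, minus strand: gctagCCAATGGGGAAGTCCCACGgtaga
Herpud1, chr8:94386372-94386392, plus strand: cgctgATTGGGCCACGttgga
By the RefSeq start, the Hspa5 site ended 46 bases upstream, the Calr site 143, the Pdia6 site 79, the Syvn1 site 25, the Derl3 site 137 and the Herpud1 site 41, and the Hsp90b1 copies 88 and 193 bases upstream. The Hspa5 gene model given below starts further upstream, so its ERSE lies inside that model.

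The deposited values are RPKM, which divides a gene's reads by its length and by the reads of the library. Libraries held an estimated 25.6 to 55.7 M reads, with a median of 44.7 M. The gene named by the genotype label went against it: Nrsn2 was at 29.2 ± 2.39 RPKM in WT controls and 31.2 ± 1.94 in controls labelled knockout, and at 29.7 ± 2.58 and 34.1 ± 2.34 after CSDS (SD, n = 5 each). Whether the allele leaves a transcript is not stated, so every direction between genotypes below rests on the label. Xist, the RNA of the inactive X of females, was at 56.5 and 48.2 RPKM in the control 10 libraries of WT and of the knockout label, and at most at 0.0618 in the other 18, CSDS libraries included. For 3 more libraries, WT 9B and those labelled knockout 10B and 11, the title says control and the treatment field CSDS. These were left out of all groups, and counts with them on either side are given beside the results. Neuronal marker genes summed to between 1871 and 2161 RPKM in all 20 libraries, while the choroid plexus gene Ttr ran from 16.9 to 4740 RPKM.

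After CSDS most of the ER chaperone genes were lower in WT, and most of the same genes were lower in libraries labelled knockout. Lumenal chaperones, lectin chaperones and disulfide isomerases made up 15 of the 22 genes that fell in WT, and Xbp1 fell with them. The stress sensors Ern1, Eif2ak3 and Atf6 and the translocon genes did not pass the test. All 36 genes together took 923 ± 46.8 RPKM in WT controls and 741 ± 24.9 after CSDS, and 849 ± 40.2 and 719 ± 23.7 with the knockout label. The highest CSDS library (772 RPKM in WT, 744 with the knockout label) lay below the lowest control library of its genotype (860.1 and 819.6 RPKM). In such whole-tissue RNA, fewer cells of a type and less RNA per cell cannot be told apart.

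In WT, 22 of the 36 genes (61.1%) fell at an adjusted p below 0.05, where 12.5% of all 18274 genes tested fell. Only Sil1 rose (2.78%, against 9.88% of all genes). These calls come from limma on log2(RPKM + 0.5), two-sided, with Benjamini-Hochberg adjustment over all genes tested. The median log2 fold change of the 36 was −0.16, against −0.0017 over all genes. For 20 genes every CSDS library lay below every control library, which held for 9.65% of all genes. For Sil1 and Edem2 every CSDS library lay above, which held for 7.49%.

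In libraries labelled knockout 17 of the 36 genes (47.2%) fell, against 8.88% of 18259 genes tested, and all 17 were among the 22 of WT. By limma 0 rose, against 6.17% of all genes, with 1 (Sil1) at an unadjusted p below 0.05, where 13.3% of all genes were. The median log2 fold change was −0.13, against −0.0067 over all genes. Groups did not overlap for 18 genes in the lower direction, against 7.46% of all genes, and for 0 in the higher, against 5.45%. In the authors' deposited table, whose control side includes the libraries of conflicting label, 21 of the 36 were lower and Sil1 was higher in WT at a false discovery rate below 0.05. The same table has 11.8% of its 17840 genes lower and 9.15% higher. For the knockout label the authors' deposited table has 17 lower (8.67% of all genes) and 2 higher, Sil1 and Os9 (8.45% of all genes). The lower genes were not all those of limma. In WT the authors' include Derl2 (false discovery rate 0.00944) and not Atf6b (0.257) or Derl1 (0.107). With the knockout label they include Pdia4 (0.0447) and Syvn1 (0.044) and not Hspa13 (0.116) or Dnajb9 (0.0583).

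These counts depended on the libraries of conflicting label. Counted as controls, as titled, they left 22 genes lower in WT, with 13.8% of all genes lower, and 19 with the knockout label, with 10.4% of all genes lower. Counted as CSDS, they left 15 in WT, with 4.41% of all genes lower, and 1 with the knockout label, Dnajc3, with 0.51% of all genes lower. Without both control 10 libraries the counts were 20 in WT and 18 with the knockout label, with 12.2% and 10.9% of all genes lower. WT 9B was close to WT control 9 in summed ER genes (887.4 and 892.4 RPKM) and Ttr (1460 and 1476). The libraries 10B and 11 were also close (804.8 and 802.4 RPKM, Ttr 66.53 and 62.77). Whether such pairs share an animal is not stated. If they do, counting each as its own sample, here or on the authors' control side, overstates the replication.

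**Figure D1:**
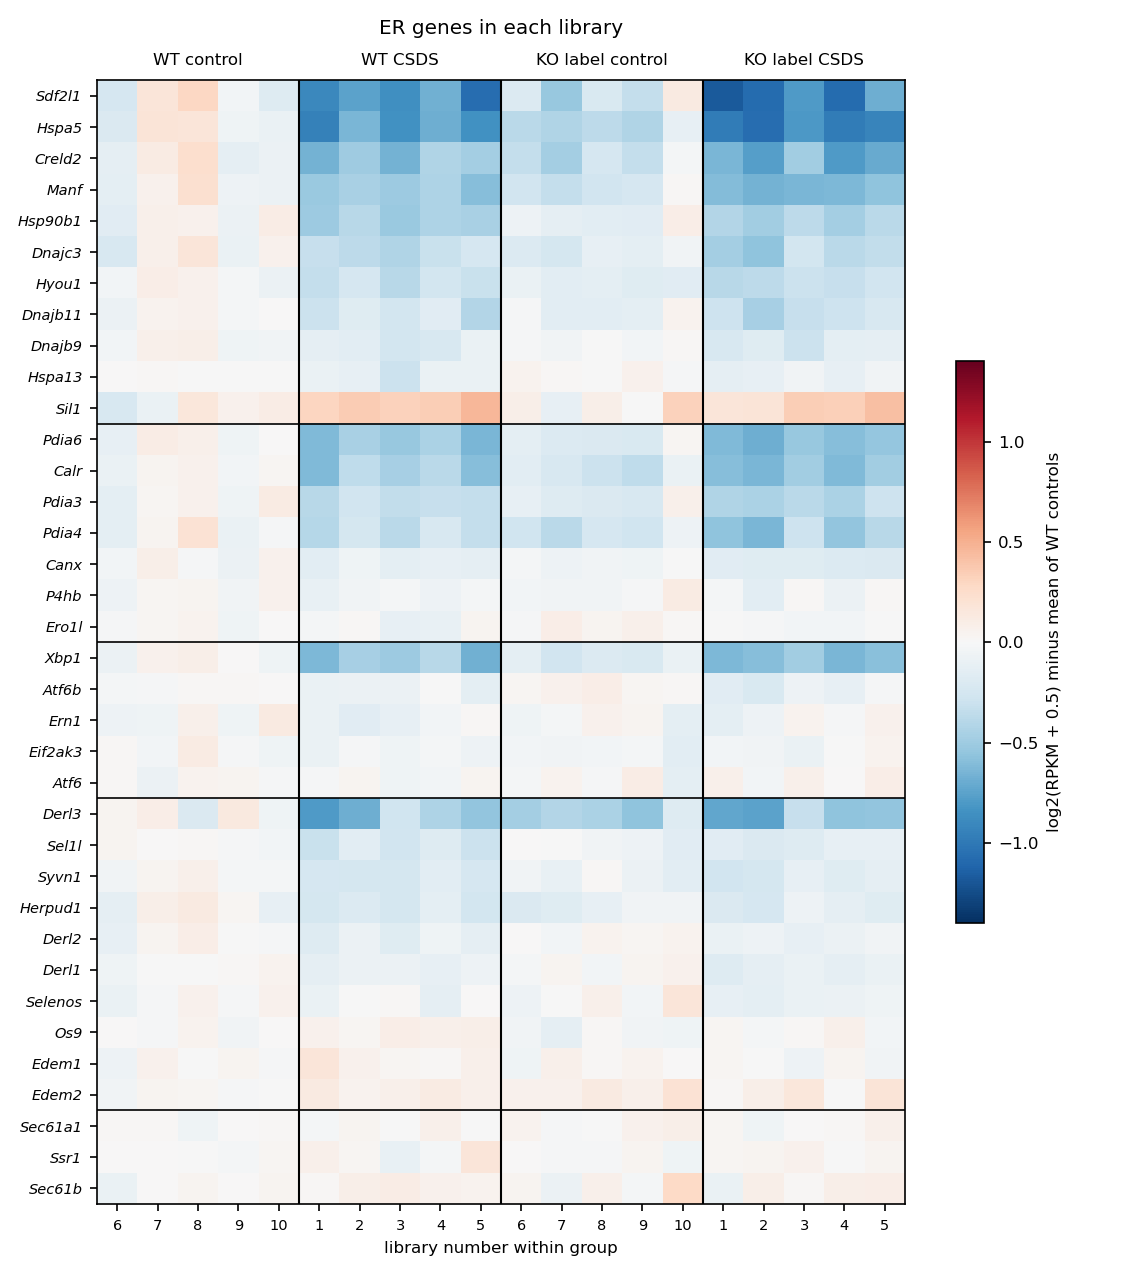
Level of each of the 36 genes (rows, grouped by role) in each of the 20 libraries (columns), as log2(RPKM + 0.5) minus the mean of the WT controls. Both CSDS blocks are blue for most lumenal chaperones, for Pdia6, Calr and Xbp1, while Sil1 is red and the translocon genes at the bottom stay pale.

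Among the lumenal chaperones of the Hsp70 and Hsp90 families and their co-chaperones, 10 of 11 fell in WT and the same 10 fell with the knockout label. The shares over all genes were 12.5% in WT and 8.88% with the knockout label. Hspa5 (ENSMUSG00000026864, chromosome 2, 34771970 to 34777547, mm10), the central chaperone of the ER, had the second highest level of the 36 in WT controls. Its RPKM in WT controls 6 to 10 were 92.5, 121, 119, 102 and 99.9, and in WT CSDS libraries 1 to 5 55.1, 67.8, 59, 65.8 and 58.9. In the knockout label the controls had 81.4, 79.2, 82.4, 78.9 and 97.8 and the CSDS libraries 53.5, 50.3, 60.6, 53.6 and 55.6. No CSDS library reached the lowest control of either genotype, and control 10 of the knockout label stood above the other 4. The log2 fold change was −0.79 ± 0.08 (SE) in WT (limma adjusted p = 0.000403) and −0.61 ± 0.06 with the knockout label (adjusted p = 0.000758).

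Hsp90b1 (ENSMUSG00000020048, chromosome 10, 86690209 to 86705509) encodes Grp94, which folds integrins and Toll-like receptors. WT controls held 87.7, 103, 102, 92.9 and 105 RPKM and WT CSDS libraries 68.6, 74.8, 68.2, 72.6 and 71.3. Controls labelled knockout held 93.5, 89.9, 88.7, 87.5 and 105 RPKM, and CSDS libraries 73.6, 69.6, 75.9, 70.5 and 75.1. The groups did not overlap in either genotype. Its fold changes were −0.46 ± 0.05 (limma adjusted p = 0.000506) and −0.34 ± 0.05 (adjusted p = 0.00228). The gene overlaps the transcript 1810014B01Rik over 4598 bases, and the library kit does not keep strand, so reads of the pair cannot be told apart there.

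The co-chaperone genes fell by different amounts. Sdf2l1, a partner of the ER DnaJ proteins, had the lowest fold change of all 36, −0.85 ± 0.11 in WT (from 9.44 ± 1.55 to 4.99 ± 0.566 RPKM, SD, n = 5) and −0.73 ± 0.13 with the knockout label. Creld2, an ER protein released under stress, changed by −0.54 and −0.40, and Manf, a secreted factor that binds BiP, by −0.50 and −0.40. Dnajc3, which directs BiP to its clients and inhibits PERK, changed by −0.33 and −0.26. Dnajb11, an abundant J-protein of the lumen, changed by −0.26 and −0.24. Falls were smaller for Dnajb9, a J-protein that represses IRE1 (−0.17 and −0.17), and for Hspa13, an Hsp70 relative (−0.14 and −0.11). The call of Hspa13 was lost in WT when any of controls 6, 7, 8 or 9 was left out, and with the knockout label without control 6 or 9 or CSDS library 1, 2 or 4. The deposited model of Manf spans other genes, Dcaf1 among them, so its values are uncertain.

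BiP gives up its bound nucleotide with the help of exchange factors, and the genes of these went in opposite directions. Hyou1 (ENSMUSG00000032115, chromosome 9, 44379490 to 44392369), a large Hsp70 relative and exchange factor, had 15.1, 16.6, 16.2, 15.3 and 14.7 RPKM in WT controls and 12.2, 13.2, 11.8, 12.9 and 12.5 in WT after CSDS. Under the knockout label it had 14.5, 14, 14.1, 13.8 and 13.9 in controls and 11.8, 12, 12.6, 12.3 and 12.8 after CSDS. All CSDS libraries were below all controls of their genotype. It fell by 0.30 ± 0.04 on the log2 scale in WT (limma adjusted p = 0.00111) and by 0.19 ± 0.03 with the knockout label (adjusted p = 0.00323).

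Sil1 (ENSMUSG00000024357, chromosome 18, 35266396 to 35499780), the other exchange factor measured, was at 7.58, 8.32, 10.02, 9.29 and 9.63 RPKM in WT controls and at 11.1, 11.6, 11.3, 11.5 and 12.5 in WT CSDS libraries. Every WT library after CSDS was above every WT control. Libraries labelled knockout had 9.44, 8.18, 9.47, 8.88 and 11.2 as controls and 10.1, 10.2, 11.5, 11.4 and 12.1 after CSDS, where control 10 lay within the CSDS range. The fold change was 0.36 ± 0.07 in WT (limma adjusted p = 0.00522) and 0.22 ± 0.08 with the knockout label (adjusted p = 0.0794). Leaving out control 10 of the knockout label gave 0.28 (adjusted p = 0.0134), past the threshold.

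**Figure D2:**
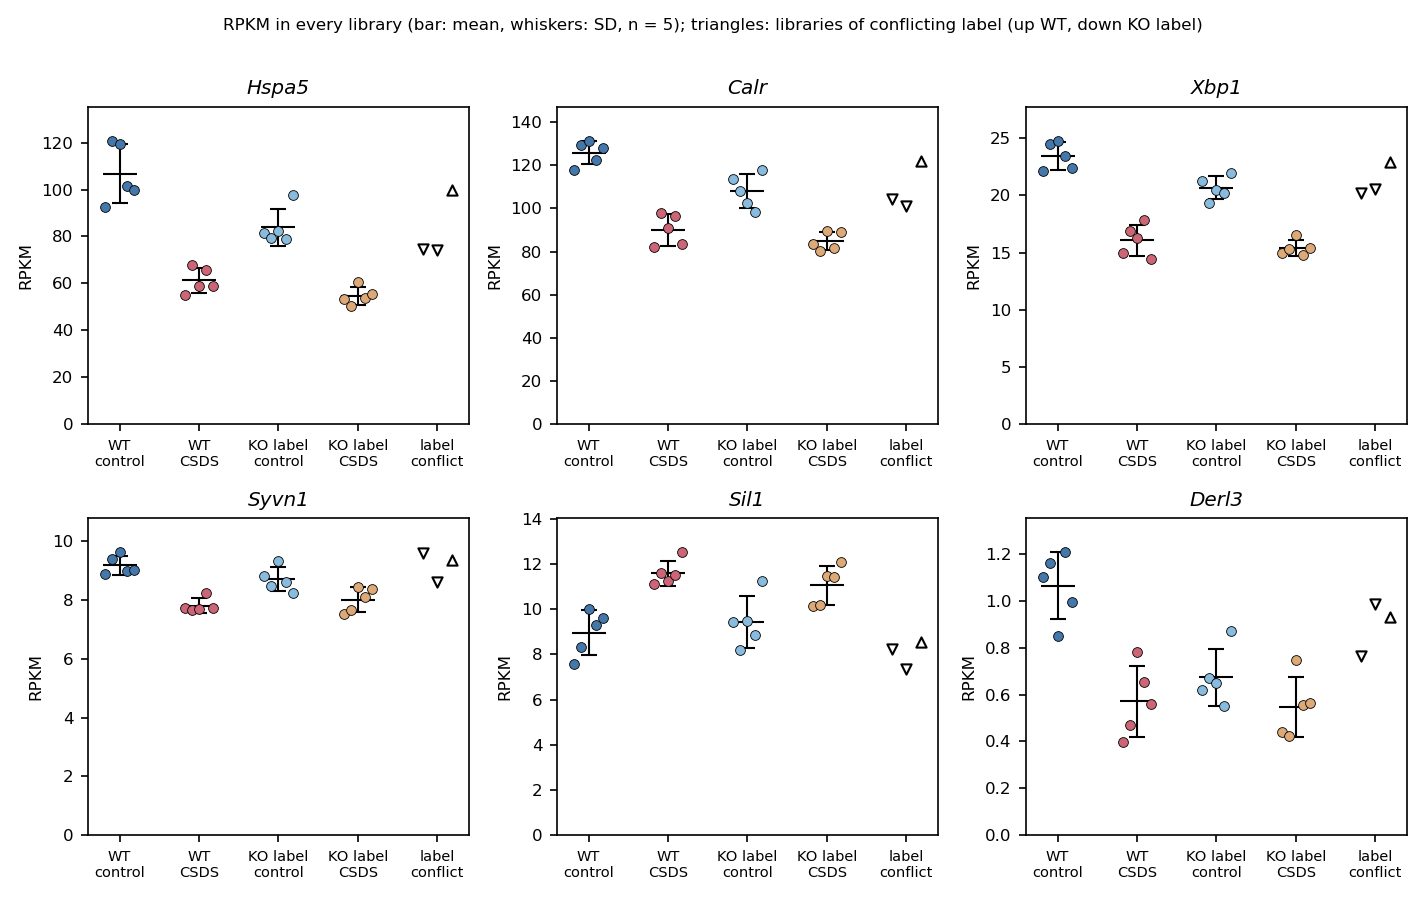
RPKM of 6 ER genes in every library by group, with the mean and SD of 5 libraries, and in the 3 libraries of conflicting label (triangles). Hspa5, Calr and Xbp1 are lower in both CSDS groups without overlap, Sil1 is higher after CSDS in WT, and Derl3 is highest in WT controls.

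The lectin chaperones and disulfide isomerases fell in 5 of 7 cases in WT and 4 of 7 with the knockout label. Of all genes tested, 12.5% and 8.88% fell. Calr (ENSMUSG00000003814, chromosome 8, 84841850 to 84846934) encodes calreticulin, which holds glycoproteins and calcium in the lumen, and had the highest level of the 36, 126 ± 5.45 RPKM in WT controls. The WT controls had 118, 129.5, 131, 123 and 128 RPKM and the WT CSDS libraries 82, 98.1, 90.7, 96.4 and 83.4. Labelled knockout, the libraries had 114, 108, 102, 98.3 and 118 in controls and 83.3, 80.5, 89.4, 81.9 and 89.3 after CSDS. No CSDS value reached a control value of its genotype. Fold changes were −0.48 ± 0.05 (limma adjusted p = 0.000519) and −0.35 ± 0.05 (adjusted p = 0.00319).

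Pdia6 (ENSMUSG00000020571, chromosome 12, 17266545 to 17284770), a disulfide isomerase that also acts on IRE1, gave the smallest p of the 36 in WT. It stood at 29.5, 34.3, 33.6, 30.6 and 32.2 RPKM in WT controls and 20.7, 23.3, 22, 23.3 and 20.3 in WT CSDS libraries. The label knockout had 29, 28.1, 27.8, 27.5 and 32.7 in controls and 20.7, 19.7, 21.9, 21 and 21.9 after CSDS. Both pairs of groups were apart. The change was −0.54 ± 0.05 in WT (limma adjusted p = 0.000308) and −0.45 ± 0.05 with the knockout label (adjusted p = 0.000841).

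Pdia3, the isomerase that works with the lectin chaperones, changed by −0.33 in WT and −0.27 with the knockout label, past the threshold in both. Canx, which encodes calnexin, the membrane-bound lectin, changed by −0.12 and −0.13. Its WT groups overlapped, and 9 of 21 alternative settings left it above the threshold in WT. Pdia4 fell in WT (−0.32 ± 0.06, limma adjusted p = 0.00599), while with the knockout label its value was −0.24 ± 0.07 (adjusted p = 0.0523). P4hb, the most studied isomerase, was at −0.056 and −0.041 (adjusted p = 0.199 and 0.564). The oxidase gene Ero1l, which recharges the isomerases, was at −0.037 and −0.062 (adjusted p = 0.5 and 0.146).

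Of the sensors and transcription factors, 2 of 5 fell in each genotype, Xbp1 and Atf6b, where 12.5% (WT) and 8.88% (knockout label) of all genes fell. Xbp1 (ENSMUSG00000020484, chromosome 11, 5520659 to 5525893) encodes the factor that IRE1 activates by splicing its mRNA, and the values are for the whole gene, so the spliced form was not measured. WT controls had 22.1, 24.5, 24.8, 23.5 and 22.4 RPKM against 14.9, 16.9, 16.3, 17.8 and 14.5 in WT CSDS libraries. Those labelled knockout had 21.3, 19.4, 20.5, 20.2 and 22 as controls against 14.9, 15.3, 16.6, 14.8 and 15.4 after CSDS. The highest CSDS library, 17.8 RPKM in WT and 16.6 with the knockout label, was below the lowest control, 22.1 and 19.4 RPKM. It fell by 0.53 ± 0.06 on the log2 scale in WT (limma adjusted p = 0.000428) and by 0.41 ± 0.04 with the knockout label (adjusted p = 0.000461).

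Atf6b (ENSMUSG00000015461, chromosome 17, 34647146 to 34655074), the less active relative of Atf6, moved little in WT. Its controls had 21, 21.3, 21.6, 21.7 and 21.6 RPKM and its CSDS libraries 20.1, 20.2, 20.2, 21.3 and 19.5. Values under the knockout label were 21.9, 22.4, 23, 21.9 and 21.7 in controls and 19.2, 18.4, 20.4, 19.8 and 21.2 after CSDS. The groups overlapped in WT through CSDS library 4 and did not with the knockout label. Its change was −0.080 ± 0.03 in WT (limma adjusted p = 0.0441) and −0.16 ± 0.04 with the knockout label (adjusted p = 0.0177), and 16 of 21 alternative settings left it above the threshold in WT.

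The 3 sensor genes gave no call. Ern1 was at −0.076 ± 0.06 in WT and 0.0045 ± 0.06 with the knockout label, with 95% intervals of −0.20 to 0.047 and −0.12 to 0.13. Eif2ak3 was at −0.056 ± 0.04 and 0.038 ± 0.04 (95% intervals −0.14 to 0.028 and −0.045 to 0.12). Atf6 was at −0.006 ± 0.03 and 0.044 ± 0.05 (95% intervals −0.080 to 0.068 and −0.058 to 0.15). Ern1 was also among the lowest of the 36 in level, at 1.89 ± 0.154 RPKM in WT controls.

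**Figure D3:**
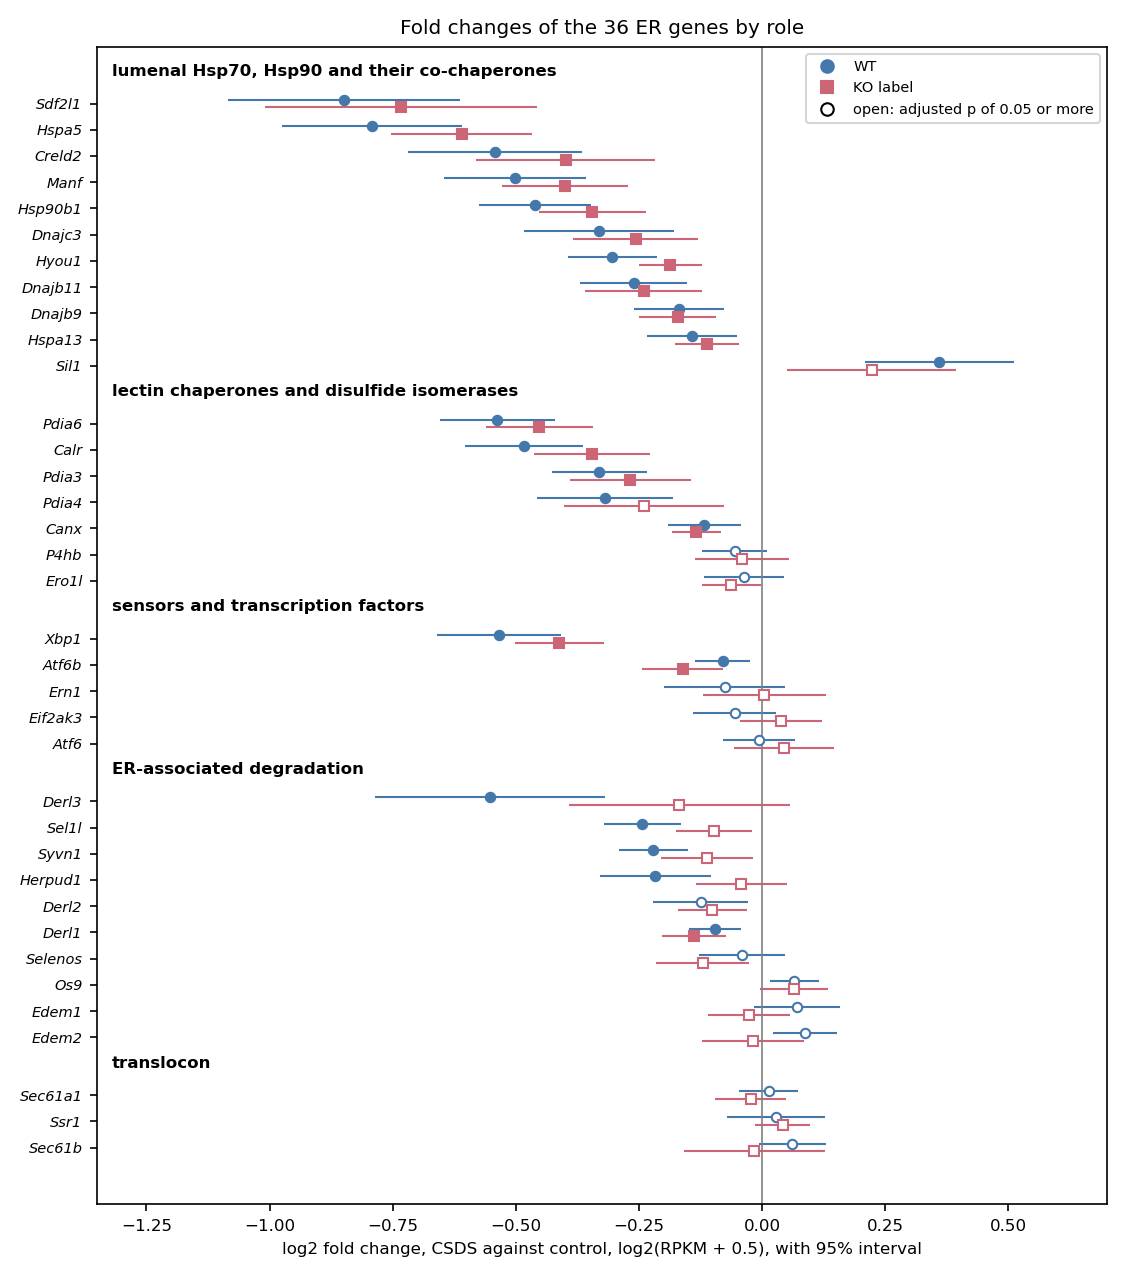
Log2 fold change of CSDS against control with its 95% interval for the 36 genes by role, in WT (circles) and with the knockout label (squares), open where the adjusted p was 0.05 or more. Filled points lie left of 0 for 10 of 11 lumenal chaperones in both genotypes, Sil1 lies right, and the 3 translocon genes are open and near 0.

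Genes of ER-associated degradation fell in 5 of 10 cases in WT (Herpud1, Syvn1, Sel1l, Derl1 and Derl3) and 1 of 10 with the knockout label (Derl1). Over all genes 12.5% fell in WT and 8.88% with the knockout label, so the latter count was near the share of all genes. Syvn1 (ENSMUSG00000024807, chromosome 19, 6046576 to 6053712) encodes Hrd1, the ubiquitin ligase at the centre of the process. WT controls had 8.88, 9.41, 9.64, 8.98 and 9.03 RPKM and WT CSDS libraries 7.74, 7.66, 7.68, 8.24 and 7.74, without overlap. Controls of the knockout label had 8.84, 8.49, 9.32, 8.62 and 8.25 and CSDS libraries 7.53, 7.66, 8.43, 8.10 and 8.39, with overlap. The change was −0.22 ± 0.03 in WT (limma adjusted p = 0.00138) and −0.11 ± 0.04 with the knockout label (adjusted p = 0.103).

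Sel1l (ENSMUSG00000020964, chromosome 12, 91806043 to 91849157), the adaptor that brings clients to Hrd1, followed the same pattern. It had 25.1, 24.6, 24.7, 24.2 and 23.8 RPKM in WT controls and 19.6, 22.1, 20.3, 21.4 and 19.7 in WT after CSDS, again without overlap. Controls labelled knockout had 24.6, 24.3, 23.5, 23.2 and 21.9 RPKM and CSDS libraries 21.8, 21.2, 21.5, 22.6 and 22.5, and control 10 fell within the CSDS range. Its changes were −0.24 ± 0.03 (limma adjusted p = 0.00147) and −0.10 ± 0.03 (adjusted p = 0.0824).

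Derl3 (ENSMUSG00000009092, chromosome 10, 75893413 to 75895941), a derlin of the retrotranslocation channel, had the lowest level of the 36. WT controls had 1.10, 1.16, 0.852, 1.21 and 0.996 RPKM, and WT CSDS libraries 0.397, 0.470, 0.783, 0.652 and 0.560. The knockout label had 0.622, 0.672, 0.648, 0.553 and 0.874 in controls and, in CSDS libraries, 0.442, 0.424, 0.748, 0.556 and 0.564. WT controls were above every WT CSDS library, and the groups of the knockout label overlapped. The WT change was −0.55 ± 0.11 (limma adjusted p = 0.00536), and that of the knockout label −0.17 ± 0.10 (adjusted p = 0.298). At this level the added 0.5 shrinks the fold change: the ratio of the WT means was 0.537.

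Herpud1, a scaffold of the Hrd1 complex, fell in WT (−0.22 ± 0.05, limma adjusted p = 0.0138), and was at −0.042 ± 0.04 with the knockout label (adjusted p = 0.54). Derl1 fell by 0.10 in WT and by 0.14 with the knockout label. Its relative Derl2 was at −0.12 and −0.10 (adjusted p = 0.0644 and 0.058), and Selenos, a partner of the derlins, at −0.041 and −0.12 (adjusted p = 0.49 and 0.0825). The lectin Os9, which selects clients, and the mannosidase-like Edem1 and Edem2 had positive values in WT (0.066, 0.071 and 0.087) that did not pass (adjusted p = 0.0627, 0.22 and 0.0577). Edem2 and Os9 passed in WT when libraries were rescaled by the median ratio, and Os9 also without WT control 8 or without WT CSDS library 2.

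The translocon genes gave 0 calls of 3 in either genotype by limma, and 0 at an unadjusted p below 0.05. Of all genes 12.5% fell and 9.88% rose in WT, and 8.88% fell and 6.17% rose with the knockout label. At the unadjusted threshold these shares were 19.5% and 16.7% in WT and 17% and 13.3% with the knockout label. Sec61b (ENSMUSG00000053317, chromosome 4, 47474658 to 47483242), a small subunit of the Sec61 channel, had 8.49, 9.10, 9.37, 9.14 and 9.31 RPKM in WT controls and 9.18, 9.64, 9.77, 9.45 and 9.43 in WT CSDS libraries. The knockout label gave 9.32, 8.54, 9.57, 8.90 and 11.1 in controls and 8.51, 9.65, 9.20, 9.65 and 9.75 after CSDS. Control 10 of that label was the highest of all, and the other values overlapped. Its changes were 0.061 ± 0.03 and −0.016 ± 0.06 (limma adjusted p = 0.18 and 0.903). Ssr1 (ENSMUSG00000021427, chromosome 13, 37966605 to 37994217), a subunit of the translocon-associated complex, had 15.4, 15.3, 15.2, 15 and 15.6 RPKM in WT controls and 16.2, 15.6, 14.2, 15 and 17.3 after CSDS. Under the knockout label it had 15.3, 15.1, 15.1, 15.7 and 14.7 and 15.6, 15.8, 16, 15.3 and 15.8. Groups overlapped in both genotypes, with changes of 0.028 ± 0.04 and 0.042 ± 0.03 (adjusted p = 0.68 and 0.296). Sec61a1, the pore subunit, was at 0.013 ± 0.03 and −0.023 ± 0.03.

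Fold changes of the 36 genes had a similar order in both genotypes, which share no library in these comparisons. Over the 36 genes Pearson's r was 0.94 and Spearman's rho 0.91, against an r of 0.43 over 18089 genes tested in both. Genes within a library are not independent, so these are descriptions. The list was also drawn up with results of these data known, so its higher r cannot be told apart from that choice. All 22 genes that fell in WT had a negative value with the knockout label, and for 18 of them the WT fall was the larger. These 22 were picked by their WT values, which alone favours a larger WT fall, so the 18 give no comparison of the genotypes. The 5 called by limma in WT alone were Pdia4, Herpud1, Syvn1, Sel1l and Derl3. Of these, Pdia4 and Syvn1 passed with the knockout label too in the authors' deposited values.

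**Figure D4:**
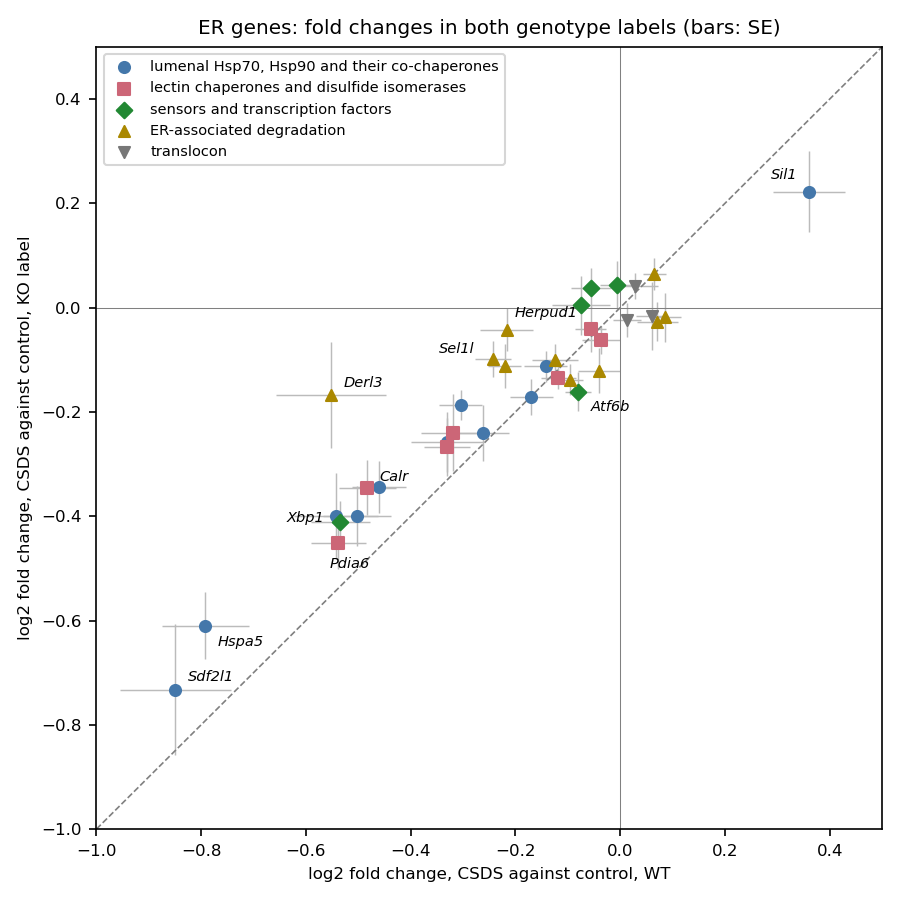
Log2 fold change with the knockout label (y axis) against that in WT (x axis) for the 36 genes, bars giving the SE and the dashed line equality. Points run from Sdf2l1 and Hspa5 at the lower left to Sil1 at the upper right. Of the 36, 27 are further from 0 in WT, and the share over all genes was not counted.

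Whether the CSDS effect differed between the genotype labels was tested as an interaction over all 4 groups. By limma 0 of the 36 had a larger fall and 0 a smaller one with the knockout label, where 0.0876% and 0.0602% of 18263 genes passed in the lower and higher direction. At an unadjusted p below 0.05 the counts were 0, where 6.06% of all genes were lower, and 4, where 5.39% were higher. The 4 were Sel1l, Derl3, Herpud1 and Hyou1. The smallest adjusted p was that of Sel1l, whose difference of effects was 0.14 ± 0.05 (knockout label minus WT, 95% interval 0.042 to 0.25, adjusted p = 0.242). Derl3 differed by 0.38 ± 0.15 (95% interval 0.075 to 0.69, adjusted p = 0.307). Herpud1 differed by 0.17 ± 0.07 (95% interval 0.033 to 0.32, adjusted p = 0.315). For Hspa5 the difference was 0.18 ± 0.11 and its interval ran from −0.050 to 0.41. The median difference over the 36 genes was 0.056, against −0.0043 over all genes.

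Controls labelled knockout had lower levels of 4 of the 36 genes than WT controls (11.1%), where 1.50% of 18263 genes were lower, and 0 were higher, where 2.45% were. At an unadjusted p below 0.05 limma gave 13 lower, where 7.8% of all genes were, and 1 higher (Edem2), where 10.9% were. These controls also enter the CSDS comparisons, so the results are not independent. Hspa5 differed by −0.34 ± 0.08 (knockout label minus WT, limma adjusted p = 0.0198), Calr by −0.22 ± 0.06 (adjusted p = 0.0319), Hyou1 by −0.14 ± 0.04 (adjusted p = 0.0295) and Derl3 by −0.42 ± 0.10 (adjusted p = 0.0313). For Hyou1 and Calr every control labelled knockout was below every WT control. For Hspa5 the overlap was between control 10 of the knockout label (97.8 RPKM) and WT control 6 (92.5 RPKM). For Derl3 it was between the same control 10 (0.874 RPKM) and WT control 8 (0.852 RPKM). The next in order were Xbp1 (−0.18, adjusted p = 0.0549) and Pdia4 (−0.25, adjusted p = 0.0557).

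This count turned on single libraries. It was 0 without WT control 7, 2 without WT control 8 and 1 without WT control 9, where 0.898%, 1.16% and 0.717% of all genes were lower. It was 9 without control 10 of the knockout label, where 1.51% of all genes were lower, and 1 without its control 7, 8 or 9, where 0.93%, 1.01% and 1.01% were. With the libraries of conflicting label counted as controls it was 9, with 3.2% of all genes lower, and counted as CSDS it was 0, with 0.828% lower. Without both control 10 libraries it was 8, with 1.92% of all genes lower. Of the 10 libraries labelled knockout, control 10 gave the highest value for 21 of the 36 genes.

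After CSDS 0 of the 36 were lower and 0 higher with the knockout label than in WT, where 0.734% and 1.51% of all genes were. At an unadjusted p below 0.05 limma gave 4 lower and 1 higher, where 6.97% and 9.01% of all genes were. Sel1l again had the smallest adjusted p (0.088 ± 0.03, adjusted p = 0.212). Hspa5 was at −0.16 ± 0.08 with a 95% interval of −0.32 to 0.0032, and Pdia4 at −0.17 ± 0.07 with an interval of −0.32 to −0.021. The median over the 36 genes was −0.056 among controls and −0.03 after CSDS, against 0.0076 and 0.0037 over all genes.

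The promoter elements shown above were set beside the change after CSDS. All 9 ERSE holders fell in WT, with a median log2 fold change of −0.48 and a range of −0.79 to −0.12. Of these 9, 7 fell with the knockout label, with a median of −0.34. With the ERSE-II holders Dnajb11 and Herpud1 added, 11 of 11 fell in WT and 8 of 11 with the knockout label. Of the 18 genes with a promoter entry and none of the 3 strings, 7 fell in WT (median −0.066) and 5 with the knockout label (median −0.08). Among genes outside the list with none of the strings, 1436 of 11149 fell in WT (median 0.003). With the knockout label 1026 of 11140 such genes fell (median −0.007). The 18 listed genes without a string include Sdf2l1 and Xbp1, which were among the genes of lowest fold change. No test was made over these groups, since the genes were chosen with results known.

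Other genes holding an ERSE in the same window were mostly not called. Of 11 such genes tested, Ero1lb, an oxidase relative of Ero1l, fell in WT (−0.22, limma adjusted p = 0.0058) and Zfp57 rose (0.19, adjusted p = 0.0317). By limma 0 of the 11 were called with the knockout label. Over all genes 12.5% fell and 9.88% rose in WT, and 8.88% fell and 6.17% rose with the knockout label. Alg12, which shares its promoter region with Creld2, was at 0.014 ± 0.04 in WT (adjusted p = 0.807), where Creld2 fell by 0.54. Both genes were singled out after their values were seen.

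**Figure D5:**
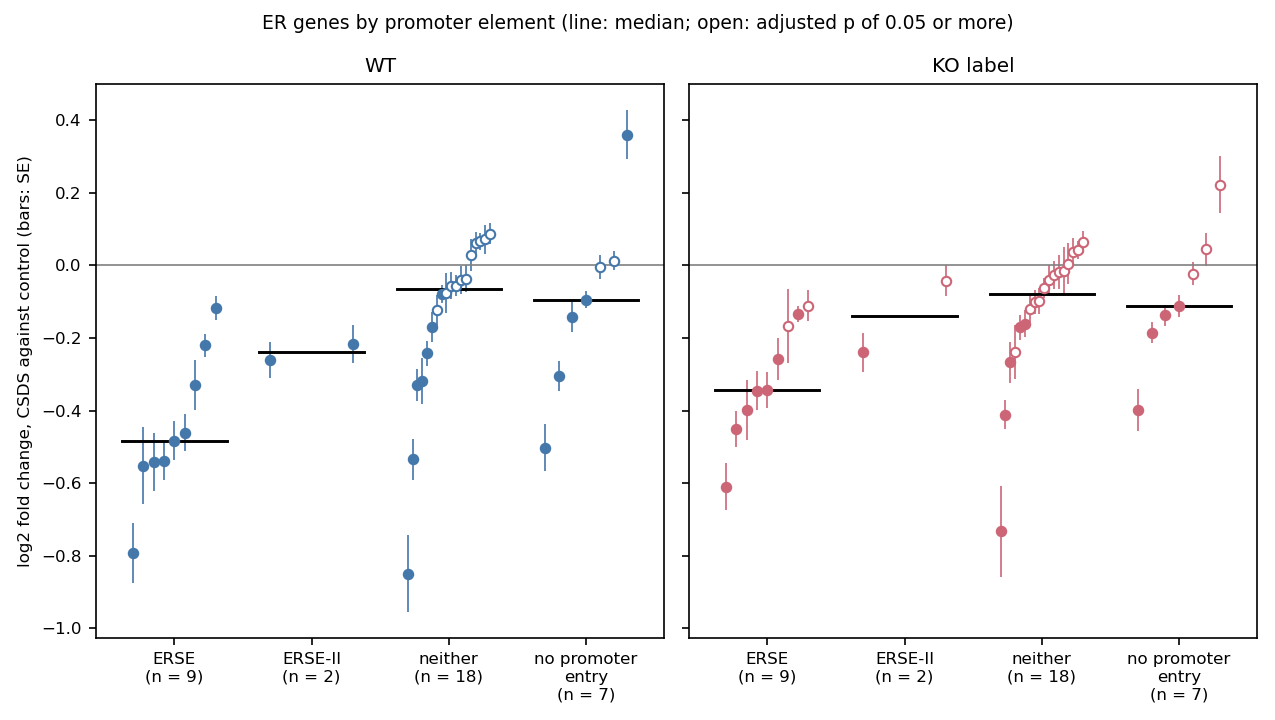
Log2 fold change of CSDS against control for the 36 genes in WT (left) and with the knockout label (right), by the element found in the promoter, with bars for the SE and a line at the median of each set. All ERSE and ERSE-II holders are filled and below 0 in WT, while the sets without an element or without an entry reach from −0.85 to 0.36.

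Outside the 36, other genes of the same organelle were counted in the same way. Of 182 other ER genes tested in WT, 28 fell and 23 rose, with a median of −0.003, and of 181 tested with the knockout label 29 fell and 7 rose, with a median of −0.021. Over all genes 12.5% fell and 9.88% rose in WT, and 8.88% fell and 6.17% rose with the knockout label. Among 37 further chaperones and isomerases tested in WT, 6 fell and 8 rose, and of 36 tested with the knockout label 6 fell and 3 rose. The collagen chaperone Fkbp10 rose (0.35, and 0.21 with the knockout label), while Ero1lb (−0.22) and the prolyl isomerase Fkbp14 (−0.21) fell in WT. Fkbp14 also fell with the knockout label (−0.252), where Ero1lb (−0.078) was not called. Among 38 further degradation genes, 5 fell and 2 rose in WT and 10 fell and 1 rose with the knockout label. The ubiquitin-conjugating enzyme Ube2g2 (−0.27 and −0.21), Ubxn4, an ER anchor of the extraction ATPase (−0.22 and −0.18), and the shuttle factor Ubqln2 (−0.20 and −0.19) fell in both genotypes.

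Among 30 further sensors, transducers and genes of the PERK branch, 8 fell and 4 rose in WT and 1 fell and 1 rose with the knockout label. For this and the next lists too, 12.5% of all genes fell and 9.88% rose in WT. With the knockout label 8.88% of all genes fell and 6.17% rose. Creb3l2, an ER-bound transcription factor, fell by 0.22 in WT, the ER phosphatase gene Ptpn1 by 0.20 and the transcription factor gene Cebpb by 0.20. Ptpn1 also fell with the knockout label (−0.144), where Creb3l2 (−0.213) and Cebpb (−0.134) were not called. Among 39 genes of translocation, signal peptidase and glycosylation, 8 fell and 3 rose in WT and 9 fell and 1 rose with the knockout label. Srp54a (−0.27) and Srp19 (−0.15), of the signal recognition particle, fell in WT and the translocon-associated Ssr4 rose (0.17). Srp19 also fell with the knockout label (−0.212), where Srp54a (0.04) and Ssr4 (0.021) were not called. Among 39 genes of ER to Golgi transport, 2 fell and 6 rose in WT and 4 fell and 1 rose with the knockout label. The KDEL receptor gene Kdelr2, whose product returns escaped chaperones to the ER, rose in WT (0.15), and so did Yif1a (0.18) and Scfd1 (0.14). Kdelr2 (−0.009), Yif1a (0.046) and Scfd1 (0.087) were not called with the knockout label.

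Other gene groups moved in the same libraries. Over all genes 12.5% fell and 9.88% rose in WT, and 8.88% fell and 6.17% rose with the knockout label. Of 22 cytosolic heat shock genes 19 fell in WT and 15 with the knockout label, with medians of −0.26 and −0.19. Of 25 immediate early genes, which neurons switch on with activity, 17 fell in WT, and 11 fell and 1 rose with the knockout label. Of 8 structural RNAs without the usual poly(A) tail all 8 fell in WT and 4 with the knockout label. The mean log2(RPKM + 0.5) of these 8 ran from 2.54 to 3.97 in WT controls and 1.84 to 2.32 in WT after CSDS, and from 2.39 to 4.82 and 2.09 to 2.38 with the knockout label. The part of these groups in the ER result was not tested.

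Markers of other tissue and cell types differed in a less uniform way. Their counts stand beside 12.5% of all genes lower and 9.88% higher in WT. With the knockout label these shares were 8.88% and 6.17%, and several marker counts were near them. All 5 red blood cell genes tested rose in WT after CSDS, where their sum over 6 genes was 558.5 to 2807 RPKM against 205.9 to 296.6 in WT controls. By limma 0 of these 5 were called with the knockout label, at 177.8 to 355.9 RPKM against 259.7 to 376.8 in controls. Of 15 meningeal fibroblast genes 1 rose in WT and 7 fell with the knockout label, at 68.9 to 122 RPKM summed against 99.6 to 207.6. Of 17 endothelial genes 3 fell and 3 rose in WT, and 8 fell and 1 rose with the knockout label. The 20 choroid plexus genes gave 0 calls in either genotype by limma, with sums of 84 to 5884 RPKM in WT controls. Of 16 microglial genes 5 rose in WT and 1 fell with the knockout label. Of 14 astrocyte genes 1 fell and 4 rose in WT, and 3 fell and 3 rose with the knockout label. Of the oligodendrocyte genes 3 of 14 tested fell in WT and 1 of 15 with the knockout label. Of 14 neuronal genes 3 fell in WT, and 1 fell and 2 rose with the knockout label. Of 18 genes of hippocampal subfields 0 were called in WT by limma and 1 fell with the knockout label. None of these marker genes was at 0 in all 20 libraries, and their part in the ER result was not tested.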

How the data were processed

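Poly(A) RNA of mouse hippocampus was sequenced in 23 libraries. STAR and the mouse build mm10 are named in the submitters' processing notes. Which version, annotation and counter were used is not given in the sources used here. Libraries were made with the TruSeq V2 kit per the labels, which does not keep strand. The authors deposited RPKM per gene and library in 2 tables, 1 per genotype label, and with them, per the file headers, edgeR log2 fold changes, p-values and false discovery rates. The deposited likelihood ratio, a score per gene, was not used. By their sign the deposited log2 fold changes are control minus CSDS, and they were turned here to CSDS minus control. The tables were joined by Ensembl identifier, since 26 symbols differ between them. Gene coordinates are those the authors deposited. Depth was estimated from the steps in RPKM of low genes with 1 exon.

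Genes with a mean of at least 0.5 RPKM over the libraries fitted were tested with limma 3.58.1 (R 4.3.3) and a mean-variance trend on log2(RPKM + 0.5), two-sided, with Benjamini-Hochberg adjustment over all genes tested and a threshold of 0.05. The CSDS comparisons used the 10 libraries of a genotype, and comparisons across genotypes 1 fit over all 4 groups. The 2 tables were scaled separately by the authors, which bears on levels across them. The script was tested on simulated data. Members and gene lists were chosen with earlier results of these data known, so counts and medians stand beside those of all genes and no test was made over a list. Values in every library are given for the 2 members of smallest p in WT per role, members called higher after CSDS and members called between genotypes. From each further ER list the 3 called genes of largest change in WT with at least 1 RPKM are named. Alternatives were other pseudocounts (0.1 and 1), no filter or one of 1 RPKM, rescaled libraries, library weights, no trend, 1 fit over all groups, the conflicting libraries placed in either group, a replicate block across genotypes, and each library left out.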

Additional observations from a re-analysis of the deposited data

Results flagged for a closer look

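Over the 13 genes given by library and the 4 groups, 52 sets of 5 libraries were examined for a value set apart from the other 4 by Dixon's criterion, which chance meets in about 1 in 20 sets. It was met 3 times. Control 10 of the knockout label had 97.75 RPKM of Hspa5, where the next was 82.39 and the lowest 78.94. The same library had 32.7 RPKM of Pdia6, where the next was 29.01 and the lowest 27.51. It is one of the 2 libraries with high Xist, and it had the highest Ttr of its label, 4381 RPKM. The other library with high Xist, WT control 10, was not set apart (Hspa5 at 99.92 RPKM). The part of either trait was not tested. WT CSDS library 4 had 8.244 RPKM of Syvn1, where the next was 7.743 and the lowest 7.659.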

How the results depend on the processing

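The number of ER genes lower after CSDS was 19 to 21 in WT and 16 to 19 with the knockout label when 1 library was left out. With the conflicting libraries counted as CSDS the latter was 1, and that in WT was 15. Alternatives that moved no conflicting library to CSDS and left out no single library gave 20 to 22 in WT and 17 to 21 with the knockout label. The number higher in WT was 3 with rescaled libraries, with library weights or with the conflicting libraries as controls (Edem2 and Os9 added), 0 with these as CSDS, and 1 to 2 with 1 library left out. With the knockout label it was 1 (Sil1) with library weights, the conflicting libraries as controls, 1 fit over all groups or both control 10 libraries left out, and 0 to 1 with 1 library left out. Leaving out both control 10 libraries was chosen after seeing the data.

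The number lower in controls of the knockout label was 7 with rescaled libraries, 8 with library weights, 9 with the conflicting libraries as controls, 0 with these as CSDS, 8 without both control 10 libraries and 0 to 9 with 1 library left out. The number higher there was 1 with the conflicting libraries as controls. With a replicate block across genotypes the number lower was 1 (Derl3), and the counts for the difference of effects and after CSDS were 0 as before. By the labels the groups share only numbers. Deviations of same-numbered libraries correlated at −0.11 to 0.37 over 10 pairs, with 3 over 0.1 and 4 highest for the own number. The pair at 0.37 was that of the control 10 libraries, both of which had high Xist. The cause of these shifts was not tested. How depth limits each gene was not measured.

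Medians kept their sign, at −0.171 to −0.13 in WT and −0.138 to −0.092 with the knockout label. Of 44 results for single called genes none changed sign, and 15 kept their side of the threshold in every alternative. Sign changes occurred only for genes near 0 that were not called. Atf6 in WT was 0 with rescaled libraries and 0.011 with the conflicting libraries as CSDS, and −0.027 to 0.008 with 1 library left out. With 1 library left out Sec61a1 in WT was −0.002 to 0.023 and Ssr1 −0.007 to 0.062. With the knockout label Ern1 was −0.016 with library weights, −0.01 with the conflicting libraries as CSDS, −0.024 without both control 10 libraries and −0.024 to 0.034 with 1 left out. Edem2 was 0.006 without both control 10 libraries and −0.041 to 0.006 with 1 left out. Sec61b was 0.016 with library weights, 0.023 with the conflicting libraries as controls, 0.04 without both control 10 libraries and −0.051 to 0.04 with 1 left out.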

Other observations

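In the 3 libraries whose title and treatment field disagree, the 36 genes summed to 887 RPKM in WT 9B, 805 in 10B and 802 in 11 of the knockout label. Hspa5 was at 99.9, 74.8 and 74 RPKM, Calr at 122, 104 and 101, and Xbp1 at 23, 20.2 and 20.6. Every one of these values lay above all CSDS libraries of its genotype. In 10B and 11 the sum and Hspa5 also lay below all controls of the knockout label, whose lowest were 819.6 and 78.9 RPKM. Calr and Xbp1 in 10B and 11 lay within the range of those controls, and the values of WT 9B within that of WT controls. Sil1, higher after CSDS, was at 8.55, 8.23 and 7.36 RPKM, below all CSDS libraries of its genotype. Its value in 11 was also below all controls of the knockout label, the lowest of which had 8.18 RPKM. Xist was at 1.45 and 1.6 RPKM in 10B and 11 of the knockout label, between the 2 libraries with high Xist and the other 18. The choroid plexus gene Ttr was at 66.53 and 62.77 RPKM in 10B and 11. All controls and CSDS libraries of the knockout label had more, the lowest at 480.9 RPKM. The part of this in the lower sum and Hspa5 of 10B and 11 was not tested.

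Among genes outside the list that hold an ERSE or ERSE-II in the promoter window, 17 were tested. In WT 3 fell: the splicing factor gene Rbm39 (−0.14, limma adjusted p = 0.00399), Lrif1 (−0.18, adjusted p = 0.0112) and Ero1lb, and Zfp57 rose. With the knockout label Rbm39 (−0.17, adjusted p = 0.00688) and Lrif1 (−0.24, adjusted p = 0.0116) fell. Rbm39, Lrif1, Ero1lb and Zfp57 were named after their values were seen. Over all genes 12.5% fell and 9.88% rose in WT, and 8.88% fell and 6.17% rose with the knockout label.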
